A study of Sus scrofa with 48 samples.

Results

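The T and NK cell markers described here are 10 genes, CD3D, CD3E, CD3G, CD247, CD2, CD8A, CD8B, GZMA, NKG7 and KLRK1, measured in the liver of pigs. They were found on the array as every probe named for one of them by the scanner output or by the accession it targets, which gave 23 of the 60305 different probes and 10 of the 12091 named genes. The liver of each of 48 Large White barrows was hybridized to an array of its own. The pigs came from lines divergently selected over 8 generations for residual feed intake (RFI), the feed eaten beyond the predicted needs for maintenance and growth, and 24 pigs were of the low RFI line (RFIneg) and 24 of the high RFI line (RFIpl). From 74 days of age, 12 pigs of each line received a diet rich in fat and fiber (HF) and 12 a diet low in both (LF), and livers were taken at 19 weeks of age. Every pig thus belonged to a selected line and received a test diet, and no unselected or untreated group was included.

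T cells recognise antigen with a receptor whose signal is passed into the cell by the CD3 chains, and NK cells kill target cells without such a receptor. The chains CD3D, CD3E and CD3G are found in T cells, whereas CD247, the zeta chain of the same complex, also passes the signal of several NK cell receptors. CD2 is an adhesion receptor of both cell types, CD8A and CD8B form the co-receptor of cytotoxic T cells, and CD8A alone is also carried by many porcine NK cells. GZMA encodes a protease and NKG7 a membrane protein of cytotoxic granules, and KLRK1 encodes NKG2D, an activating receptor for stress ligands. The liver is known for its many resident NK and T cells, which lie in the sinusoids. In RNA of whole liver, fewer cells of a type and less RNA per cell cannot be told apart.

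Each probe was a 60-base sequence. The probes below are shown since CD247 was the member that differed between lines and diets, since CD3G and CD2 are other members whose brightest probes it is set beside, and since the CD3D and the KLRK1 pair each overlap by a few bases. Sequences run 5′ to 3′ as given by the scanner output, and capitals mark the bases shared by both probes of a pair.
CD247 probe starting at base 278 of its transcript: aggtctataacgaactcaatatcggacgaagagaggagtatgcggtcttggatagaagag
CD3D probe starting at base 200: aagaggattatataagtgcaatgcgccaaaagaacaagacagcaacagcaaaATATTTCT
CD3D probe starting at base 252: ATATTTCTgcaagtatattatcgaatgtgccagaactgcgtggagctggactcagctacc
CD3G probe starting at base 344: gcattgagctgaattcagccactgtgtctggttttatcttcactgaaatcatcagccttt
CD2 probe starting at base 516: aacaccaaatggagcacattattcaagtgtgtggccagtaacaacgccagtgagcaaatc
KLRK1 probe starting at base 529: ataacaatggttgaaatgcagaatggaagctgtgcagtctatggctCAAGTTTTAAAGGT
KLRK1 probe starting at base 742 of another transcript model: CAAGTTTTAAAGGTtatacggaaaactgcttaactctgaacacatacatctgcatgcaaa

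The probes differed in how well they repeated each other over the 48 pigs. The 3 CD247 probes start at bases 278, 1009 and 1685 of their transcript models and share no sequence, and their log2 values correlated with an r of 0.94 to 0.95. The KLRK1 pair, which shares 14 bases of the 60, had an r of 0.91, and the GZMA pair had an r of 0.85. The CD3E pair, which shares 51 bases, had an r of 0.58. By contrast, the r of the CD3G pair was 0.09, and those among the 3 CD3D probes were 0.21 (the overlapping pair) to 0.42. The values of these genes thus differed with the probe, but some of the probes were dim. The dimmer CD3D probe of the overlapping pair was well above background on 21 arrays (median intensity 11.3), and the second CD3G probe on 36 (20.8). The other CD3D probes were above it on all 48 arrays (medians 277 and 33.7) and had an r of 0.27. The second CD3G probe also had split values. On the log2 scale with the array median at 0, they lay from -4.54 to -2.57 or from -1.76 to -1.18, with none between. Pigs of all 4 line and diet groups lay on both sides of this gap, and the brightest CD3G probe showed no such gap. The parts of dimness and of this split in the low r were not tested. For CD8A, a sequence printed on the array under a pair of probe names gave an r of 0.98, with an SD of the difference of 0.11 on the log2 scale. The repeated sequence of CD8B, a dim probe, gave an r of 0.69 and an SD of the difference of 0.67, the spread between spots of 1 sequence on the same array. The reference table of assembly Sscrofa11.1 holds 2 GZMA genes on chromosome 16, and the GZMA values may be shared between them. In that assembly CD3E, CD3D and CD3G are direct neighbours on chromosome 9, and CD247 lies on chromosome 4.

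All 10 members were detected in liver. All 23 probes passed the filter for testing, which asked for a signal well above background on at least 12 arrays, and 14 probes of 8 genes met this on each of the 48 arrays. The GZMA probes passed on 44 and 27 arrays and the CD8B probes on 35, 17 and 17, so that in many livers the level of CD8B is close to background. The brightest CD8B probe passed on 18 arrays of the low and 17 of the high RFI line, and the brightest GZMA probe on 21 and 23. The lines differed most at the second CD3G probe, which passed on 21 arrays of the low and 15 of the high RFI line. The dimmer GZMA probe passed on 12 and 15. In the arbitrary units of the scanner, the median intensity was 2160 for the brightest CD247 probe, 346 for that of KLRK1, 381 for NKG7 and 17.7 for that of CD8B, and such intensities are not comparable between probes. The tissue was that of the label, since ALB, the gene of albumin, and the other 6 hepatocyte markers tested met the same criterion on every array, and the mean log2 value of ALB was 11.15 in the low and 11.13 in the high RFI line.

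In what follows, a value is the log2 intensity with the median of the array set to 0, each gene is given by its brightest probe (highest mean intensity), and the log2 fold-change (FC) for line is that of the low minus the high RFI line averaged over diets. The effects of line, diet and the interaction were estimated with limma for all 45236 tested probes at once, and a call required P under 0.01 with FC over 1.1. P-BH is the P-value after Benjamini-Hochberg adjustment over all tested probes.

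**Figure D1:**
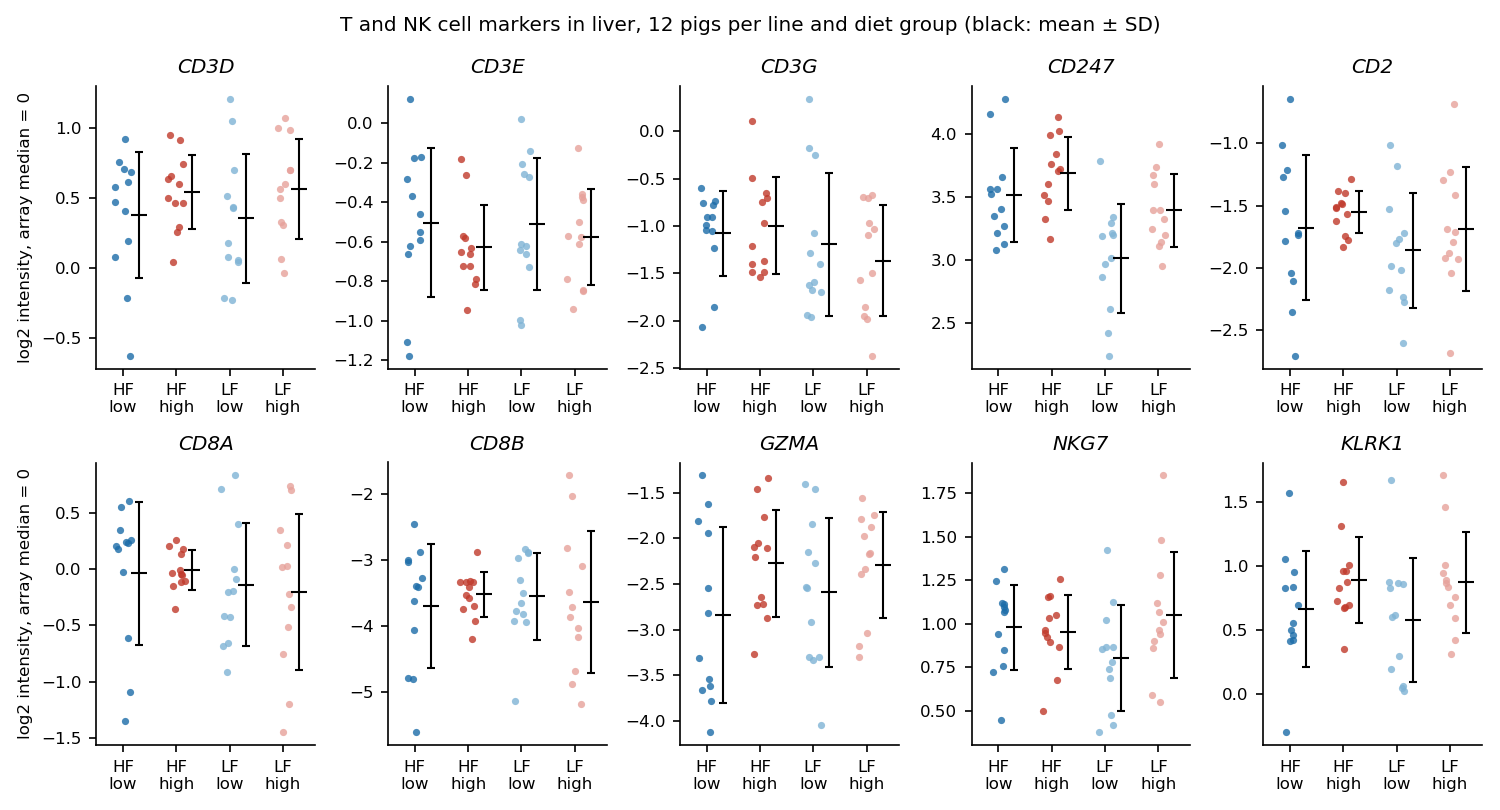
Log2 intensity of the 10 members in each pig (points, 12 pigs per line and diet group, array median at 0), with the mean and SD of each group in black. Groups overlapped for every member, and CD247 was lowest in the low RFI line fed the LF diet, with a mean of 3.01 against 3.69 in the high RFI line fed the HF diet.

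Between lines, CD247 was the only member called, and all 3 of its probes were under-expressed in the low line. The other 9 members did not pass the cut-offs at any probe, although GZMA and KLRK1 had a P under 0.05. The 3 probes called, of 23 tested, all belong to this 1 gene and are to be read against 6.91% of all tested probes. By gene, 1 of 10 was called against 9.35% of the genes with a tested probe, so that the members were called about as often as genes at large. Their median log2 FC was -0.129, with 3 genes higher and 7 lower in the low RFI line, beside a median of 0.005 over all tested probes.

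In the low RFI line, the values of CD247 ranged from 2.24 to 4.28 with a median of 3.24, and in the high RFI line they ranged from 2.96 to 4.14 with a median of 3.56. The lines overlapped, but 18 of the 24 low RFI pigs had a value under the median of the high RFI pigs. The means were 3.26 ± 0.47 (SD, n = 24) and 3.54 ± 0.32 (SD, n = 24), respectively, which differed by -0.28 on the log2 scale (limma P = 0.00796, P-BH = 0.123, standard error 0.10). The probe starting at base 278, printed above, gave -0.39 (P-BH = 0.0137, standard error 0.10), and the one starting at base 1009 gave -0.32 (P-BH = 0.0235, standard error 0.09). Only the brightest probe therefore missed a P-BH of 5%.

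The other CD3 chains did not pass the cut-offs between lines. CD3D had a median of 0.43 in the low (lowest -0.62, highest 1.21) and 0.58 in the high RFI line (lowest -0.03, highest 1.07). This was a log2 FC of -0.19 (P = 0.0997, standard error 0.11), and its other probes gave -0.16 and 0.10. CD3E, with means of -0.51 ± 0.35 (SD, n = 24) and -0.60 ± 0.23 (SD, n = 24), had a log2 FC of 0.09, with a 95% confidence interval of -0.08 to 0.27. The other CD3E probe gave 0.01. CD3G had a log2 FC of 0.05 and an interval of -0.29 to 0.38. The log2 FC of -0.28 at the brightest CD247 probe (interval -0.48 to -0.08) lay outside the interval of CD3E. It lay inside those of CD3D (-0.41 to 0.04) and CD3G. The other CD3G probe, with the split values, gave 0.12.

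The cytotoxic genes GZMA, KLRK1 and NKG7 had log2 FC below 0 for line at each probe and did not pass the cut-offs. The values of GZMA ranged from -4.12 to -1.31 with a median of -2.69 in the low RFI line, and from -3.30 to -1.34 with a median of -2.17 in the high RFI line. The log2 FC of -0.43 had a P of 0.0467 (P-BH = 0.329, standard error 0.21), and the dimmer probe gave -0.38. The size depended on the background, being -0.15 (P = 0.0532) with normexp correction and -0.22 (P = 0.044) without background subtraction. KLRK1 had a median of 0.61 in the low (lowest -0.30, highest 1.67) and 0.85 in the high RFI line (lowest 0.31, highest 1.71). The log2 FC was -0.26 (P = 0.0328, P-BH = 0.274, standard error 0.12), but the overlapping probe gave -0.09 (P = 0.441). NKG7 had a log2 FC of -0.11 (interval -0.28 to 0.05).

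CD2 and the CD8 chains did not pass the cut-offs between lines, and the interval of each held 0. The log2 FC was -0.15 for CD2 (interval -0.41 to 0.11), 0.02 for CD8A (interval -0.30 to 0.33) and -0.04 for CD8B (interval -0.49 to 0.41). The other CD2 probe gave 0.01, and the other CD8A probes gave -0.04 and 0.01. CD8A ranged from -1.35 to 0.83 in the low RFI line and from -1.45 to 0.73 in the high RFI line, nearly the same span. The wide interval of CD8B leaves differences of this order undetectable with these arrays.

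**Figure D2:**
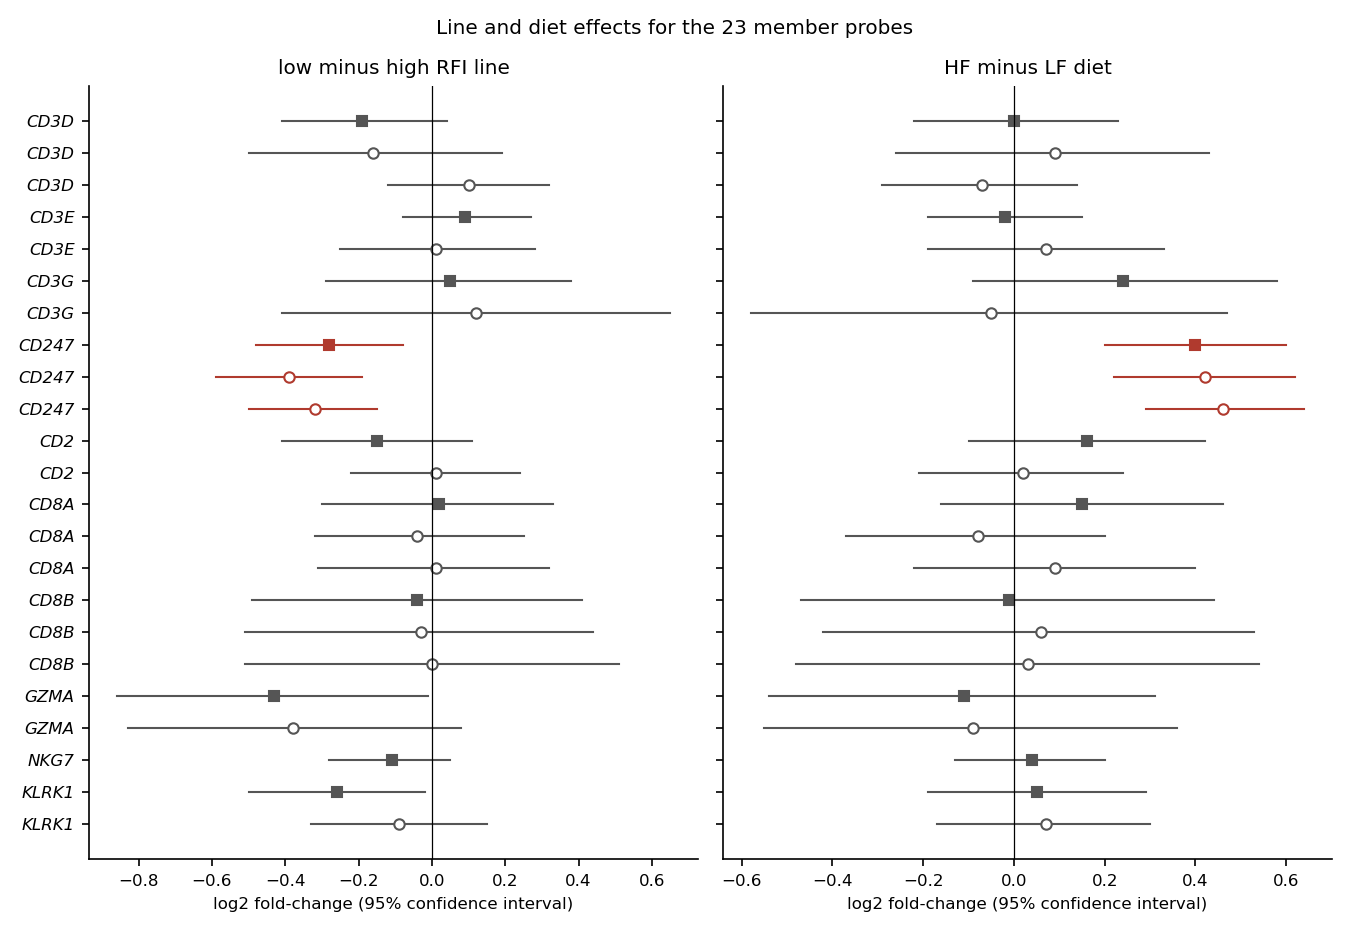
Log2 fold-change with its 95% confidence interval for each of the 23 member probes, low minus high RFI line on the left and HF minus LF diet on the right. Filled squares are the probe of highest mean intensity of a gene and open circles its other probes, and red marks probes called at P under 0.01 and FC over 1.1. The 3 CD247 probes are the ones called, lower in the low RFI line and higher with the HF diet.

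For the diet, CD247 was over-expressed in pigs fed the HF diet at all 3 probes, and no other member was called or had a P under 0.05. The background was 4.61% of all tested probes and 6.02% of the genes. The median log2 FC (HF minus LF, averaged over lines) was 0.046 over the members, 7 of which were higher and 3 lower with the HF diet, beside -0.014 over all tested probes.

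With the HF diet, the values of CD247 ranged from 3.08 to 4.28 with a median of 3.56, against 2.24 to 3.92 with a median of 3.21 with the LF diet. The diets overlapped, and 21 of the 24 pigs fed the HF diet were above the median of the LF diet. The log2 FC was 0.40 (standard error 0.10, P = 0.000217, P-BH = 0.0493), an FC of 1.32. The probes starting at bases 278 and 1009 gave 0.42 (P-BH = 0.0405) and 0.46 (P-BH = 0.0124).

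The other chains of the complex did not pass the cut-offs for diet. The log2 FC of CD3D was 0.00 (interval -0.22 to 0.23) and that of CD3E was -0.02 (interval -0.19 to 0.15). For CD3G the log2 FC was 0.24 (P = 0.147, standard error 0.16), with a median of -0.98 with the HF and -1.45 with the LF diet, while its other probe, which did not correlate with it, gave -0.05. For CD2 and CD8A the log2 FC were 0.16 (P = 0.218) and 0.15 (P = 0.348), although 19 and 20 of the 24 pigs fed the HF diet were above the median of the LF diet. The other CD2 probe gave 0.02, with 14 pigs above. For CD8A, the repeat of the same sequence gave 0.09, with 21 above, and the probe of another sequence gave -0.08, with 13 above. GZMA, KLRK1, NKG7 and CD8B had log2 FC of -0.11, 0.05, 0.04 and -0.01, and the interval of each held 0.

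No member showed an effect of line that differed between diets. The interaction had a P under 0.05 at 0 of the 23 member probes in limma, against 2.37% of all tested probes and 3.19% of the genes. The two-way ANOVA without moderated variances also gave 0 member genes. For CD247, the line difference was -0.17 (standard error 0.14, P = 0.228) with the HF diet and -0.38 (standard error 0.14, P = 0.00967) with the LF diet, and the interaction was 0.21 (standard error 0.20, P = 0.302). Similarly, the HF diet raised CD247 by 0.51 (standard error 0.14, P = 0.000831) in the low RFI line, and the difference was 0.30 (standard error 0.14, P = 0.0414) in the high RFI line. The smallest interaction P was that of NKG7, a line difference of 0.03 with the HF and of -0.25 with the LF diet (P = 0.0997).

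Whether CD247 differed from its partners was tested within arrays, as the log2 difference between CD247 and another CD3 chain in the same liver, a comparison chosen after the values were seen. In 2-sided permutation tests with 100000 resamples, in which line labels were exchanged within a diet and diet labels within a line, the diet effect on CD247 exceeded that on CD3D by 0.40 (standard error 0.12, P = 0.00102, P-BH = 0.00306 over 6 tests) and that on CD3E by 0.42 (standard error 0.11, P = 0.00036, P-BH = 0.00216). The line effect on CD247 was lower than that on CD3E by -0.37 (standard error 0.11, permutation P = 0.00174, P-BH = 0.00348). It was not distinguishable from that on CD3D, with a difference of -0.09 (permutation P = 0.431), nor from that on CD3G (-0.32, permutation P = 0.0592). For the diet effect, the difference from CD3G was 0.16 (permutation P = 0.352). All 6 tests used the brightest probe of each gene. At the other probes, the line log2 FC was -0.16 and 0.10 for CD3D, 0.01 for CD3E and 0.12 for CD3G. Their diet log2 FC was 0.09 and -0.07, 0.07 and -0.05, respectively. These probes were not set against CD247 in a test.

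**Figure D3:**
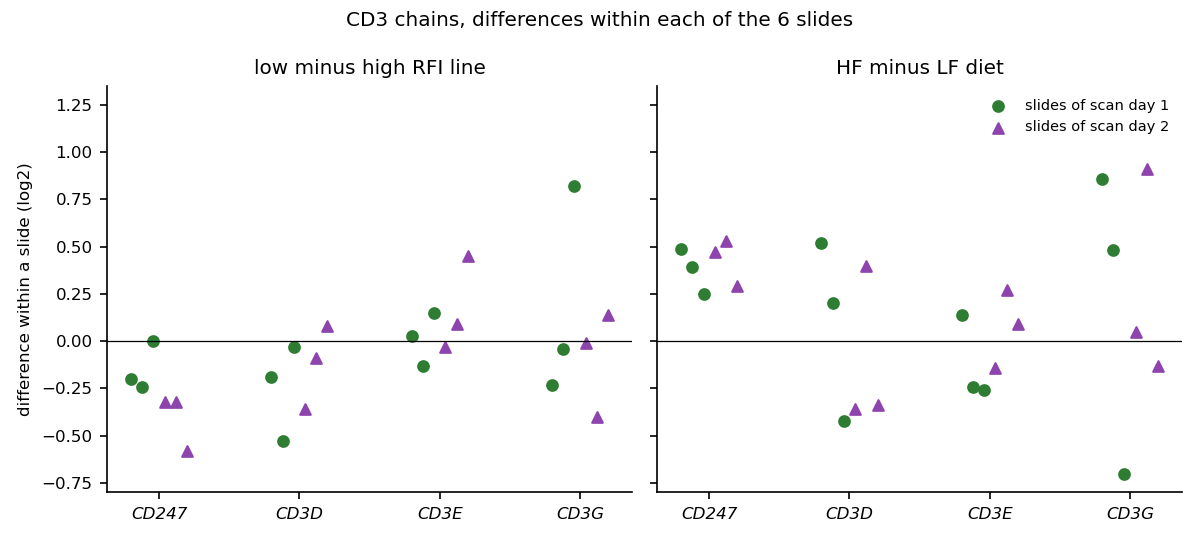
Difference between lines (left) and between diets (right) within each of the 6 slides for CD247 and the other CD3 chains, on the log2 scale, each point comparing 4 arrays with 4. Diet differences of CD247 were above 0 on all 6 slides, from 0.25 to 0.53, while those of CD3D, CD3E and CD3G lay on both sides of 0.

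Each of 6 slides carried 2 arrays per line and diet group, and the slides were scanned on 2 days. Within slides, CD247 was higher with the HF diet on 6 of 6 slides and lower in the low RFI line on 6 of 6, with differences of -0.58 to -0.004, the last being close to 0. The line difference of CD247 was -0.15 (standard error 0.14, P = 0.298) on scan day 1 and -0.41 (standard error 0.14, P = 0.00776) on scan day 2, and at all 3 probes it was larger on the second day. The difference between the days was -0.26 (standard error 0.20, P = 0.208) and did not pass the test. The diet difference was 0.37 on scan day 1 (P = 0.0137) and 0.43 on scan day 2 (P = 0.00532). On the respective days, the line log2 FC was -0.65 and -0.22 for GZMA and -0.31 and -0.21 for KLRK1, whereas that of CD8A changed sign (-0.21 and 0.25).

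The members varied together from pig to pig. Over the 48 pigs, all 45 pairs had a positive r, from 0.15 to 0.76 with a median of 0.47, and 41 pairs reached a P-BH of 5% over the 45 pairs (2-sided permutation test with 100000 resamples). After subtraction of group means, the median r was 0.48 and 39 pairs reached it. Within each scan day, with 24 pigs, the median r was again 0.48, and 28 pairs reached it on scan day 1 and 25 on scan day 2. Each pair was also tested without the 2 pigs farthest from the median of its alphabetically first gene. Pigs extreme only in the other gene were kept. Of the 41 pairs, 2 no longer had a P under 0.05 in this permutation test, CD8B with NKG7 and GZMA with KLRK1. Each of these relations rests on the pigs left out for it.

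CD3D and CD2 varied most closely, with an r of 0.76 and a Spearman rho of 0.70 (P = 1e-05 for both, the smallest the permutations can give, P-BH = 4.09e-05). Without the 2 pigs farthest from the median of CD2 the r was 0.75. KLRK1 and NKG7 had an r of 0.73 (rho 0.65), CD3D and NKG7 also 0.73 (rho 0.69), and CD8A and CD8B, partners in the co-receptor, 0.62 (rho 0.59). Pearson's r of CD247 with the other members had a median of 0.33, the lowest being 0.15 with CD8B and 0.18 with CD3E, and 6 of its 9 pairs reached a P-BH of 5%. The other 36 pairs had a median r of 0.52, and 35 of them reached it. With the mean of the other 9 members, after subtraction of group means, CD247 had an r of 0.41, GZMA of 0.51 and CD8B of 0.58, while CD3D reached 0.85, CD2 0.82 and CD8A 0.81. CD247 thus had the lowest r with the mean of the others among the 10 members.

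**Figure D4:**
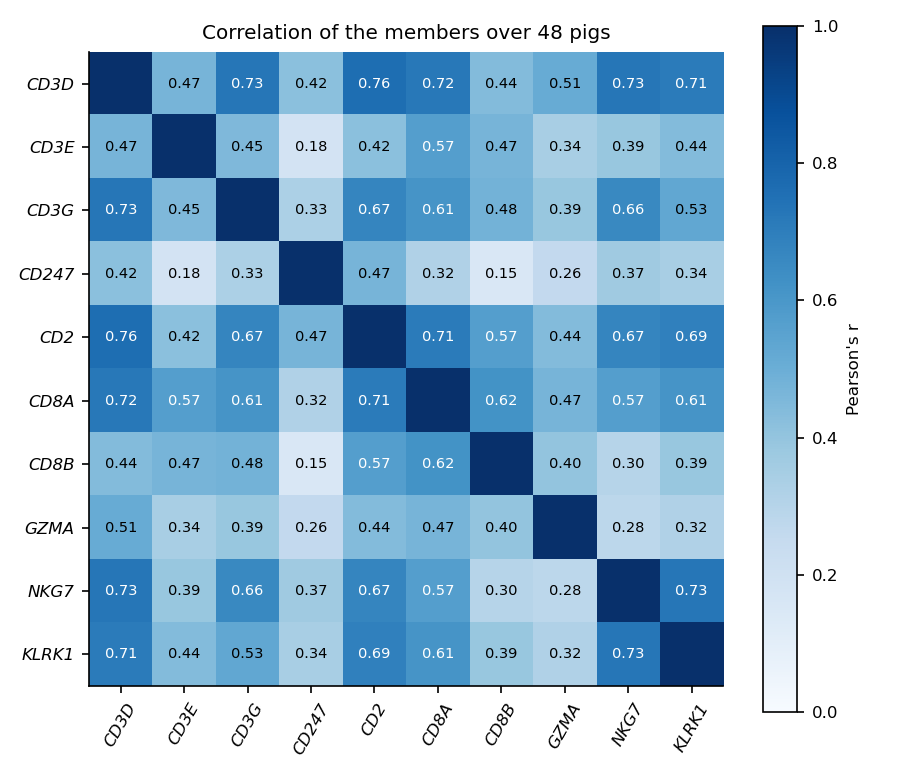
Pearson's r between the members over the 48 pigs, 1 probe per gene, with the value in each cell. All values are above 0, and the row of CD247 is paler than most, with values from 0.15 to 0.47.

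Pigs rich or poor in these transcripts occurred in both lines. With each member scaled to an SD of 1 and the 10 averaged, pigs from the low RFI line ranged from -1.74 to 1.26 with a median of 0.02, and those from the high RFI line from -1.41 to 1.45 with a median of 0.06. For 9 pigs, at least 6 members were among their 12 lowest values, of which 2 were in the low RFI line fed HF, 5 in the low RFI line fed LF, 2 in the high RFI line fed LF and 0 in the high RFI line fed HF. For 8 pigs, at least 6 members were among their 12 highest values, and these came from all 4 groups.

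The 10508 named genes with a tested probe, members included, were ranked by how closely their level followed the mean of the members over the 48 pigs, after subtraction of group means. The closest that was no member was RAC2, a small GTPase of blood cells, with an r of 0.92. It was followed by CST7 (r = 0.89), which encodes an inhibitor of cathepsins in cytotoxic cells, STK26 (0.87), a kinase, GZMK (0.85), another granule protease, and CORO1A (0.85), an actin-binding protein of leukocytes. The next were ARHGAP30 (0.84), LAPTM5 (0.84), ARHGDIB (0.83), ARHGAP15 (0.82) and RAB37 (0.82), most of which encode regulators of small GTPases or, for LAPTM5, a lysosomal protein of blood cells. The median r over all named genes was -0.061. None of these 10 genes was called for line or diet, the smallest P being 0.0285 for the line effect on ARHGAP15.

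Genes that act around the members were followed with 4 lists. Their counts of called genes, and those of the marker lists after them, are to be read against the 9.35% of genes called for line and 6.02% for diet. Of 19 tested genes of T cell receptor signalling, 0 were called between lines by limma or by the ANOVA, and 7 had a P under 0.05 at some probe. With the HF diet, CSK, a kinase that restrains the receptor, was higher (log2 FC 0.20, standard error 0.05, P-BH = 0.0667), and PAG1, which recruits CSK to the membrane, was lower at 1 of 2 probes (-0.34, P-BH = 0.132), the other probe giving 0.02. The list had a median log2 FC of -0.079 for line and 0.005 for diet.

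Of 22 tested cytotoxic granule and NK receptor genes, 16 had a log2 FC below 0 for line and 6 above, and 3 were called, each lower in the low RFI line. For the protease GZMH, low RFI pigs averaged -0.05 ± 0.51 (SD, n = 24) and high RFI pigs 0.54 ± 0.43 (SD, n = 24), which differed by -0.59 (P-BH = 0.00405, standard error 0.13), and its other probe gave -0.88 (P-BH = 0.00505). CTSC, the cathepsin that activates granzymes, fell by 0.30 (standard error 0.08, P-BH = 0.0256), and both of its probes were called. STX11, which acts in granule release, had a log2 FC of -0.33 (P-BH = 0.0535) at 1 of 2 probes and -0.28 at the other. With the HF diet, RAB27A was higher at 1 of 4 probes (0.36, P-BH = 0.139) and HCST, the adaptor that signals for KLRK1, was lower at 1 of 6 (-0.36, P-BH = 0.171), while its other 5 probes gave 0.03 to 0.08. The median of the list was -0.077 for line and 0.047 for diet.

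Among 27 tested genes of lymphocyte homing and transcription factors, 17 had a log2 FC below 0 for line and 10 above, and 4 were called lower and 1 higher in the low RFI line. Those called lower were CXCR6, a chemokine receptor of liver lymphocytes (log2 FC -0.34, P-BH = 0.0885), the integrin chain ITGB2 (-0.29, P-BH = 0.0828), the cytokine receptor IL18R1 (-0.43, P-BH = 0.137), which was above background on 18 arrays and whose other probe gave -0.15 (P = 0.473), and the chemokine CCL5 (-0.40, P-BH = 0.0154), which was called at 1 of 3 probes, the others giving -0.13 and -0.11. XCL1, a chemokine made by T and NK cells, was higher in the low RFI line at 2 of 3 probes (0.37, standard error 0.11, P-BH = 0.0303), the other giving 0.21. With the HF diet, XCL1 (1 of 3 probes, 0.29, P-BH = 0.166) and S1PR5 (2 of 3 probes, 0.32, P-BH = 0.0999), a receptor for the exit of NK cells from tissue, were called higher. This list had a median of -0.033 for line and 0.018 for diet.

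Of the 9 genes listed as ligands of KLRK1 and CD2, 3 were tested, CD48, CD58 and CD59, each listed for CD2. No ligand of KLRK1 was tested. Of the 3 tested genes, 0 were called between lines by limma or the ANOVA (0 with a P under 0.05) and 2 were called higher with the HF diet. The mean of CD58, the ligand of CD2 in humans, was 1.75 ± 0.21 (SD, n = 24) with the HF and 1.46 ± 0.30 (SD, n = 24) with the LF diet, which gave 0.29 on the log2 scale (P-BH = 0.0562, standard error 0.07). CD59 was called higher at 1 of 3 probes, by 0.17 (P-BH = 0.0996). The medians were -0.063 for line and 0.170 for diet.

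**Figure D5:**
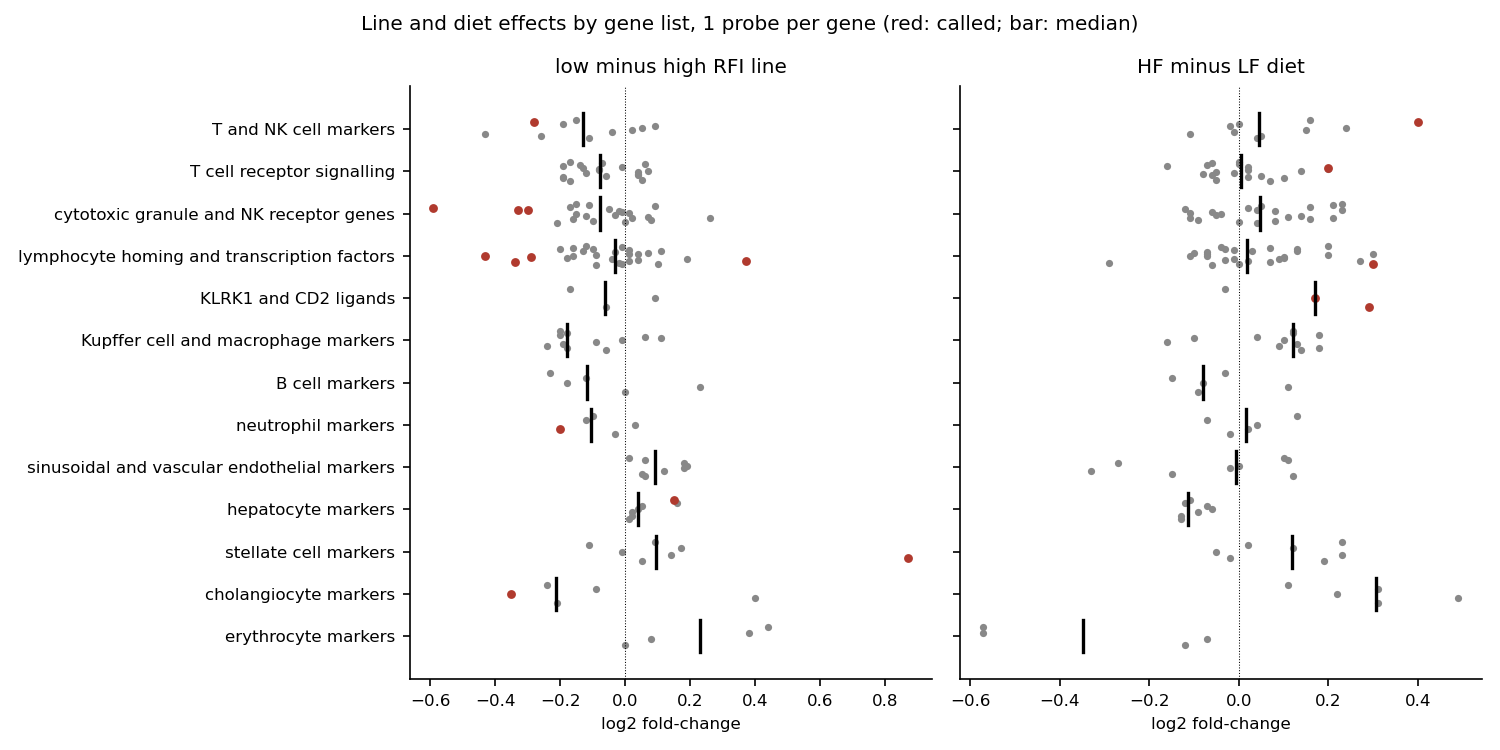
Log2 fold-change of each tested gene at its brightest probe, for the members and the other lists, low minus high RFI line on the left and HF minus LF diet on the right. Red points passed the cut-offs at that probe and black bars are list medians, which for the members are -0.129 and 0.046.

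Some markers of other liver cells were called in the same direction as CD247. Of 11 Kupffer cell and macrophage markers, 9 were lower in the low RFI line, and AIF1 (1 of 3 probes), C1QA (1 of 2) and VSIG4 (2 of 7) were called, with a median log2 FC of -0.178. With the HF diet 9 were higher (median 0.121), 0 were called by limma or the ANOVA, and 2 had a P under 0.05. The scaled mean of this list ranged from -1.77 to 1.23 in the low and from -1.02 to 1.34 in the high RFI line. Of 5 cholangiocyte markers, EPCAM (at 1 of 18 probes) and KRT7 (at its only probe) were called lower in the low RFI line (median -0.213), and EPCAM was called higher with the HF diet at 5 of 18 probes (median 0.307), the list ranging from -1.51 to 1.66 and from -1.35 to 1.75 in the respective lines. All these markers were detected, and their part in the result for CD247 was not tested.

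The remaining lists are given as medians of the log2 FC for line and for diet. For 5 B cell markers these were -0.117 and -0.081, and 0 were called for either effect by limma or the ANOVA, 1 having a P under 0.05 for each. For 5 neutrophil markers they were -0.104 and 0.017, CXCR2 was called lower in the low RFI line, and 0 were called for diet by limma or the ANOVA, 0 having a P under 0.05. For 8 endothelial markers they were 0.093 and -0.006, with 0 called by limma or the ANOVA and 2 and 1 having a P under 0.05. For 7 stellate cell markers they were 0.095 and 0.119, RGS5 (2 of 2 probes) and COL1A2 (1 of 4) were called higher in the low RFI line, and 0 were called for diet by limma or the ANOVA, 2 having a P under 0.05. For 7 hepatocyte markers they were 0.038 and -0.113, APOA1 being called higher in the low RFI line at 4 of 4 probes and ALB lower with the HF diet at 7 of 21 probes. For 4 erythrocyte markers they were 0.230 and -0.347, with 0 called by either tool and 1 and 3 having a P under 0.05.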

How the data were processed

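Liver RNA of 48 pigs was hybridized to 1-colour porcine Agilent arrays. The authors deposited the scanner output of each array, with spot intensities after background subtraction and no normalization between arrays (Feature Extraction software, then R 2.10.0 per the submitters' notes). They also deposited a table of log2 values, centred on the median of each sample, which held 37379 probes and was used as an alternative.

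Here, control spots were left out, 483 outlier spots were set to missing, and log2 intensities were centred on each array's median. The 45236 probes that were detected above background on 12 or more arrays were fitted in R 4.3.3 (limma 3.58.1). Variances were moderated with a prior of 2.8 degrees of freedom, and the methods' two-way ANOVA was an alternative. A call followed the methods' cut-offs (P under 0.01, FC over 1.1, interactions P under 0.05). The number of arrays limits the precision. Each pig was a replicate. Spots of the same probe were averaged, and 0 spots were saturated. Symbols came from the Sscrofa11.1 reference table for 7062 spots and from the array's own names, which can be old, for 16705. For 204 spots an older name was replaced by its current symbol, and 36335 spots had no symbol. Of the 45236 tested probes, 20764 had a symbol, and counts of genes cover only these.

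The members and lists were chosen with earlier results of these data known, and their counts are descriptions. Genes named were all members, called genes of the 4 T and NK cell lists (at most 10 per effect), the 10 genes most like the members, and, chosen after their values were seen, called markers of other cells and CXCR4. Correlations were tested by permutation in Python 3.11.15. The steps were tested on simulated data. Alternatives were other centring, background, filters, batches and probe averages.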

Additional observations from a re-analysis of the deposited data

Results flagged for a closer look

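An effect of line that differed between diets at P under 0.05 was found in the T and NK cell lists for CXCR4, a chemokine receptor that retains lymphocytes in tissues. At 1 of its 3 probes, the line difference was -0.29 with the HF and 0.08 with the LF diet, an interaction of -0.36 (standard error 0.17, limma P = 0.0368, P-BH = 1), and the other probes gave -0.21 (P = 0.527) and -0.07 (P = 0.787). It was 1 of 27 tested genes of its list, and the other T and NK cell lists held 0. Of all genes with a tested probe, 3.19% passed this cut-off, so that these lists did not stand out.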

How the results depend on the processing

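The number of members called was 1 for line and 1 for diet, CD247 in each case, with all alternatives but 1, and 0 members were called for line on scan day 1 alone, which has 24 arrays. The interaction was found for 0 members with all alternatives except scan day 2 alone, where 1 member (CD247, at the probe starting at base 278, 0.61, P = 0.0393) passed. The brightest CD247 probe kept its directions throughout, with a log2 FC of -0.41 to -0.15 for line and 0.37 to 0.43 for diet. It no longer passed the cut-offs for line with quantile normalization (-0.27, P = 0.0117), with slide as a block (-0.28, P = 0.0115) and on scan day 1 (-0.15, P = 0.298), nor for diet on scan day 1 (0.37, P = 0.0137). No other member passed at its brightest probe with any alternative, and signs changed only for members with a log2 FC under 0.1 in size. The number of pairs correlated at a P-BH of 5% was 41, against 23 of 28 pairs with the deposited log2 values, which lack a probe for some members, and 25 of 45 on scan day 2 alone, with fewer arrays. For uncalled members the size moved with the background, also at probes well above background on all 48 arrays, as those of CD2, CD3D and CD3G. For line, GZMA went from -0.43 to -0.15 with normexp and -0.22 with raw or deposited values, and CD2 from -0.15 to -0.06 and -0.07. CD3D went from -0.19 to -0.12 with normexp. The diet log2 FC of CD3G went from 0.24 to 0.09 and 0.13. The dimness of CD8B, GZMA, the second CD3G probe and the dimmest CD3D probe limits what these arrays can show. No paired analysis was possible because the labels give no shared replicate numbers.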

Other observations

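The spread of the members between pigs was unequal over the groups. In the high RFI line fed the HF diet, the SD of CD2 was 0.17, against 0.58 in the low RFI line fed HF, 0.46 in the low RFI line fed LF and 0.50 in the high RFI line fed LF. For CD8A, the SD was 0.17 in the same group and 0.63, 0.55 and 0.69 in the others, and for CD8B it was 0.34 against 0.93, 0.65 and 1.07. This group had the smallest SD for 7 of the 10 members, and for 27.4% of all tested probes. The members vary together, so that the 7 genes are not independent, and the difference in spread was not tested.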
